A study of Mus musculus with 2 samples.

Results

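The genes described here are the p53 gene itself and 9 genes of its pathway, followed through single fibroblasts sorted on a circadian clock reporter. The members were chosen by symbol, with earlier results of these data known: Trp53, Mdm2, Cdkn1a, Ccng1, Sesn2, Phlda3, Zmat3, Trp53inp1, Bax and Gadd45a. All 10 were found among the 33757 features of the count table, and all 10 were among the 18430 genes with enough counts to be tested. The cells were NIH3T3-Rev-VNP1-H2B-iRFP fibroblasts, a derivative of the mouse NIH3T3 line. It carries a yellow fluorescent Venus reporter of Nr1d1, the gene of the clock repressor Rev-erb alpha, and an H2B histone tagged with the near-infrared fluorophore iRFP. The cells were not synchronized, were taken at 95% confluency about 5 days after seeding, and received no treatment named in the labels. Single live cells were sorted into 384-well plates in 4 bins of Venus and read out by FLASH-seq, which sequences full-length cDNA of each cell. The labels name 2 H2B-iRFP bins for each plate. The sorting record, through its image names, instead gives the high sort for every well of plate 1 and the low sort for every well of plate 2. The record is followed here, and under it the plate and the sort cannot be told apart. Each Venus bin, numbered 1 (dimmest) to 4 (brightest), took up 6 neighbouring well columns, the same ones on each plate, so the bin and the position on the plate cannot be told apart either. No separate cultures were named for the plates. The p-values here rest on how far the bin patterns of the plates differed, after each plate's overall level was removed. That spread may be technical. Whether the line is 1 clone is not given in the sources used here.

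The p53 protein is a transcription factor that is held at low levels in unstressed cells and is stabilized by DNA damage and other stresses. Mdm2, the ubiquitin ligase that marks p53 for degradation, is itself a p53 target, which closes a negative feedback loop. Other targets stop the cell cycle (Cdkn1a, Gadd45a), promote apoptosis (Bax, Trp53inp1), restrain growth signalling (Sesn2, Phlda3) or act on the p53 response itself (Ccng1, Zmat3). Because p53 is controlled mainly through its protein, the level of its transcript and the levels of its targets are separate quantities.

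Promoter windows were taken from RefSeq (GRCm38.p6), each running from 250 bases before to 50 after a gene's start, and 8 of the 10 members had one. Zmat3 and Trp53inp1 were not matched. A search for the p53 response element, a pair of 10-base half-sites with no spacer and at most 2 mismatches, matched in 2 of these 8 members, Cdkn1a and Ccng1. The same search matched in 107 of all 32851 windows, or 0.326%. With a spacer of up to 13 bases allowed, 4 of the 8 members matched, against 4.09% of all windows. The members added by the spacer were Bax and Gadd45a. Cdkn1a and Ccng1 also shared the most variation with the other targets over cells, as reported further on. Their windows are shown because they held an element without spacer, a choice made after the windows were seen. Each is printed from 250 bases before the start up to the start, 5′ to 3′ along the gene, with the p53 element in capitals. The Cdkn1a window is chr17:29090729-29090978 (+ strand), before the more upstream of its RefSeq starts, and the Ccng1 window is chr11:40755287-40755536 (- strand).
Cdkn1a: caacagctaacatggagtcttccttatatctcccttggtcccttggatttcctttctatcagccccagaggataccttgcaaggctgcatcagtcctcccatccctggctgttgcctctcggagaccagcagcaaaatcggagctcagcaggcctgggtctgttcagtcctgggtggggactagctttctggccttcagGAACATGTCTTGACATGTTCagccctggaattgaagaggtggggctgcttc
Ccng1: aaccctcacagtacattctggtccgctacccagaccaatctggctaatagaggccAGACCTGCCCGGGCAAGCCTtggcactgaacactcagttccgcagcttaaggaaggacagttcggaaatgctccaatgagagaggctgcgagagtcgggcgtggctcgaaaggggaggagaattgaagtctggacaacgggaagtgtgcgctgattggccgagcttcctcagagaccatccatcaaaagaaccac
The Cdkn1a element differed from the consensus at 1 position and ended 32 bases before the upstream start and 2822 bases before the downstream start. The Ccng1 element also had 1 mismatch and ended 176 bases before its start. A match is a description of the letters and shows no binding.

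The window of Bax is shown because Bax rose along the clock reporter and its promoter held the E-box CACGTG, the palindrome bound by the clock activators and by other factors. The motif reads the same on both strands. It occurred in 2 of the 8 members, Bax and Trp53, and in 7.15% of all windows. The D-box (TTATGTAA or TTACGTAA, both strands) and the RORE core (AGGTCA, both strands) occurred in 0 of the 8 members, against 1.06% and 16.3% of all windows. The printed Bax window is chr7:45466899-45467148 (- strand), and the capitals mark 1 of its 2 E-boxes. The other lies past the start, outside the printed stretch. The stretch also holds a p53 element with a spacer of 1 base and 2 mismatches, which is not marked. Trp53, the other member with an E-box, had a trend of -0.06 log2 per bin and was not called. Here too a match shows no binding, and a link to the trends was not tested.
Bax: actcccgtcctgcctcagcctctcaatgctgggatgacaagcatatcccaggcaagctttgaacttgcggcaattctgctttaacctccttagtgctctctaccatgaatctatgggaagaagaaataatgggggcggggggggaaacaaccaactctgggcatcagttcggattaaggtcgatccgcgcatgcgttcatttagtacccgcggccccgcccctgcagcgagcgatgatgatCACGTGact

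After filtering, 762 of 768 cells remained, 383 on plate 1 and 379 on plate 2, with 151173 to 1618022 counts each. Counts were summed per plate and bin into 8 sums of 76042157 to 86612194 counts. The sort was reflected in the transcripts it used. Nr1d1 ran from 60.9 CPM (counts scaled to a common library total) in bin 1 to 1266 CPM in bin 4 on plate 1, and from 68.7 to 1169 CPM on plate 2. The iRFP feature stood at 40.8 CPM on plate 1 and 18.4 CPM on plate 2. Of the fibroblast markers, Col1a1 reached 8556 and 8347 CPM, while the epithelial and blood genes Epcam, Krt18, Ptprc and Cd3e were at 0.0124 CPM or less on both plates. Of the other markers of those types, Lyz2 (7.71 and 8.61 CPM) and Cdh1 (4.15 and 5.37 CPM) were the highest. Mitochondrial counts made up 9.27% of the median cell of plate 1 and 7.42% of that of plate 2.

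Levels of different members were compared per kilobase of exon, on the CPM scale. Phlda3, a pleckstrin-homology protein that competes with Akt for membrane lipids, was the most abundant at 78.7 CPM per kb (mean of the plates). Ccng1 (cyclin G1), at 66.8, and Bax, at 66.6, came next. Cdkn1a followed at 49.6, Gadd45a at 28.3, Trp53 at 25.2, Mdm2 at 15.4, Sesn2 at 8.50, Trp53inp1 at 4.57 and Zmat3 at 1.92 CPM per kb. The plate values of Ccng1 (67.0 and 66.5) lay within those of Bax (64.7 and 68.5), and no other neighbours in this order overlapped between plates.

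Along the Venus bins, 3 members passed the trend test. Ccng1 and Bax rose toward bright Venus and Gadd45a fell, in edgeR's quasi-likelihood test with Benjamini-Hochberg adjustment over all genes. Of all genes tested, 15.4% passed at an adjusted p under 0.05, with 6.78% higher and 8.64% lower. By the test for any difference between bins, 5 members passed (Cdkn1a, Ccng1, Phlda3, Bax and Gadd45a), against 8.37% of all genes. The median trend of the members was -0.01 log2 per bin, next to 0.0005 over all genes. Thus the members moved along this axis in different directions and shapes.

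Ccng1 (ENSMUSG00000020326), a cyclin that works with a phosphatase in the feedback on p53, showed the strongest rise of the members. Its summed level on plate 1 was 184 CPM in bin 1, 187 in bin 2, 242 in bin 3 and 332 in bin 4. On plate 2 it was 196, 215, 214 and 310 CPM. Bin 4 was the highest on both plates, and the other bins lay close to each other except for bin 3 of plate 1. Bin means were 190 ± 8.35 CPM in bin 1 and 321 ± 15.6 CPM in bin 4 (SD, n = 2 plates). The trend was 0.23 ± 0.026 log2 per bin (SE; adjusted p = 0.0024 by edgeR). The plates alone gave 0.27 and 0.19. The rise was also seen in the middle of the cell population: the median cell went from 158 to 271 CPM between bins 1 and 4 on plate 1 and from 178 to 249 CPM on plate 2.

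Bax (ENSMUSG00000003873), a pore-forming effector of mitochondrial apoptosis, rose toward bright Venus. Plate 1 read 84.2, 91.7, 109 and 123 CPM in bins 1 to 4, and plate 2 read 94.0, 96.1, 113 and 128 CPM. Every bin exceeded the one before it on both plates. The trend was 0.16 ± 0.017 log2 per bin (SE; 0.16 and 0.15 on the plates alone) and passed at an adjusted p = 0.0021 (edgeR). Bax overlaps Gm45808 on the same strand in the reference annotation, and how the authors' counting divided shared reads is not given in the sources used here.

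Gadd45a (ENSMUSG00000036390), a stress protein that inhibits the mitotic kinase complex and activates stress kinases, fell. On plate 1 its level was 52.1, 63.7, 49.0 and 33.6 CPM from bin 1 to bin 4, and on plate 2 it was 55.0, 61.1, 49.0 and 35.2 CPM. Bin 2 was the highest and bin 4 the lowest on both plates, and the plates nearly coincided. The trend was -0.24 ± 0.021 log2 per bin (SE; -0.25 and -0.23 on the plates alone) and passed at an adjusted p = 0.0012 (edgeR). The median cell went from 39.3 to 24.2 CPM on plate 1 and from 41.9 to 23.9 CPM on plate 2. Gadd45a overlaps E230016M11Rik on the opposite strand, and the use of strand in counting is not given. None of the 3 trends passed when bin 4 was left out of the fit, which then called 358 genes in all, against 2843 with 4 bins. Without it the trend of Bax was nearly the same size, 0.15 log2 per bin (adjusted p = 0.0527). That of Ccng1 was 0.13 (adjusted p = 0.165) and that of Gadd45a -0.07 (adjusted p = 0.314).

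Cell cycle transcripts also differed between the bins. The summed level of 43 S phase genes was 615, 651, 779 and 956 CPM in bins 1 to 4 of plate 1 and 714, 864, 771 and 932 CPM in those of plate 2. Of those 43 genes, 13 were called higher and 0 lower along the bins, and 6 passed the test for any difference. The sum of 54 G2/M genes was 1584, 1733, 1805 and 2463 CPM in the bins of plate 1, and 2366, 2520, 1687 and 2590 CPM in those of plate 2. Of these 54 genes, 7 were called higher and 2 lower, a share of 16.7%. Bin 4 held the highest S phase and G2/M sums on both plates, while the G2/M sum of plate 2 was lowest in bin 3. The part of cell cycle composition in the trends of the members was not tested.

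**Figure D1:**
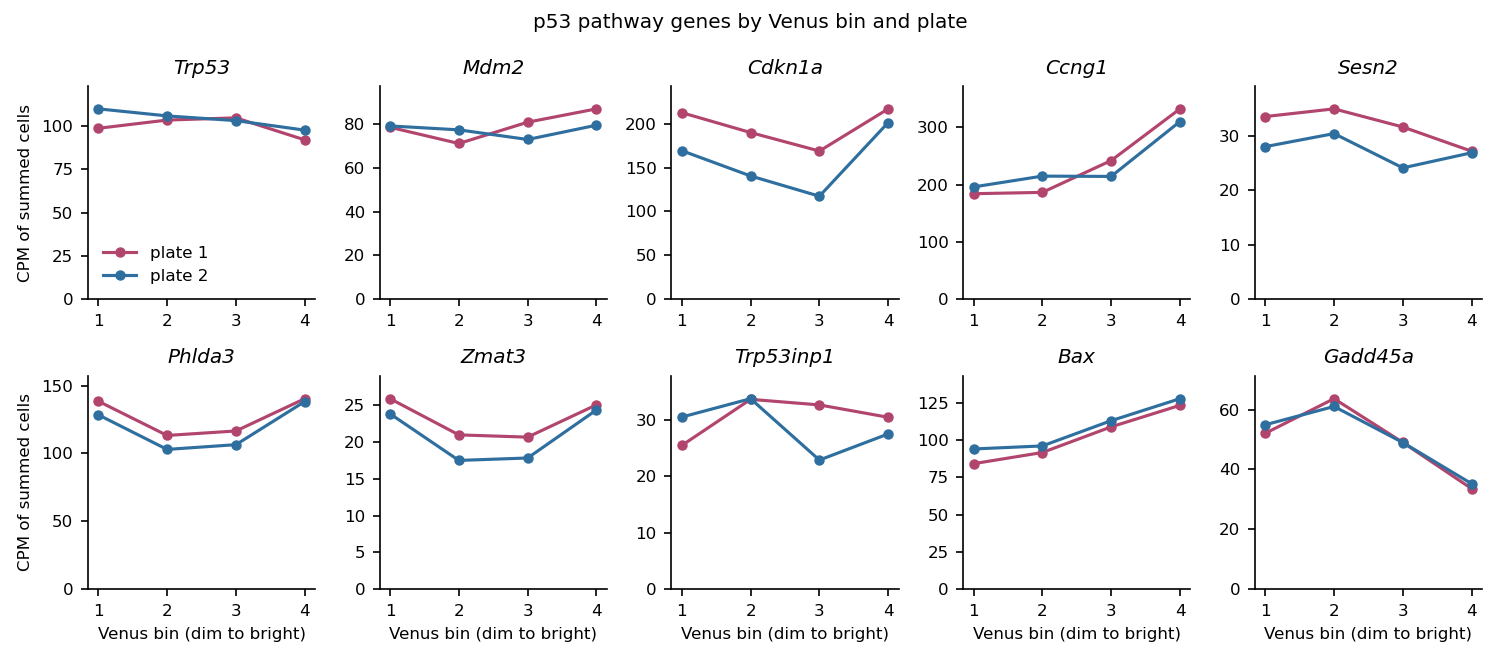
Summed level of each member (vertical axis, CPM, starting at 0) in Venus bins 1 to 4 (horizontal axis) on plate 1 (red) and plate 2 (blue); each point is the sum of 94 to 96 cells and there are no error bars. Ccng1 and Bax are highest in bin 4, Gadd45a is lowest there, and Cdkn1a, Phlda3 and Zmat3 are lower in bins 2 and 3 than in bins 1 and 4 on both plates.

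Cdkn1a, Phlda3 and Zmat3 shared another shape, with higher levels in the dimmest and brightest bins than between them. Cdkn1a (ENSMUSG00000023067) encodes p21, the cyclin-dependent kinase inhibitor that carries out p53-dependent arrest. On plate 1 it stood at 213, 190, 169 and 217 CPM in bins 1 to 4, and on plate 2 at 169, 140, 117 and 201 CPM. Bin 3 was the lowest and bin 4 the highest on both plates, and plate 1 exceeded plate 2 in every bin. The outer bins exceeded the inner bins by 0.26 log2 on plate 1 and 0.52 on plate 2. Bins differed at an adjusted p = 0.0390 (edgeR), while the linear trend was 0.01 (adjusted p = 0.939). This call was lost without the plate as a block (adjusted p = 0.450), without bin 1 (0.0817), without bin 3 (0.121) and without bin 4 (0.0624). Without bin 4 the remaining bins gave a falling trend of -0.22 log2 per bin (adjusted p = 0.0270).

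Phlda3 (ENSMUSG00000041801) read 138, 113, 117 and 140 CPM on plate 1 and 128, 103, 106 and 138 CPM on plate 2. Both outer bins were above both inner bins on each plate. The outer bins were higher by 0.28 and 0.35 log2 (adjusted p = 0.0227 by edgeR for any difference between bins). That call was lost without the block (0.156), without bin 1 (0.0663), without bin 2 (0.0530) and without bin 4 (0.0863). Without bin 1 the other bins gave a trend of 0.16 (adjusted p = 0.0322).

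Zmat3 (ENSMUSG00000027663), a zinc finger RNA-binding protein, had levels of 25.9, 21.0, 20.7 and 25.1 CPM on plate 1. On plate 2 they were 23.8, 17.5, 17.8 and 24.4 CPM. The outer bins again lay above the inner ones on both plates, by 0.29 and 0.44 log2. The difference between bins missed the threshold in edgeR (adjusted p = 0.0516). It passed with DESeq2 (0.0015), limma-voom (0.0469), no TMM scaling (0.0471) or no filter on low counts (0.0310). In the median cell of plate 2 the bins lay closer together, at 16.3, 15.4, 16.0 and 19.4 CPM.

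This shape was counted over other genes as a description. An excess of outer over inner bins above 0.2 log2 on both plates was found for 3 of 10 members, the 3 that defined the shape. Among 38 other p53 targets it held for 7: Btg2, Ckap2, Eda2r, Ephx1, Fas, Pmaip1 and Slc19a2. It held for 0 of 43 S phase genes and for 21 of 54 G2/M genes. Those 7 targets were named after their values were seen, and Ckap2 is on the G2/M list too. These counts used TMM scaling. Without it the excess was found for 5.40% of all genes tested, and for 2.95% of the 9014 more abundant ones (log2 CPM averaging 3 or more). The counts and these shares are thus not on the same scale. Without TMM scaling Ccng1 stood at 0.219 on plate 1 and 0.1998 on plate 2, next to the threshold.

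Trp53, Mdm2, Sesn2 and Trp53inp1 passed neither test. Trp53 (ENSMUSG00000059552) stayed between 92.0 and 110 CPM in all 8 sums, with a trend of -0.06 ± 0.018 log2 per bin (SE; adjusted p = 0.0681 by edgeR). Mdm2 (ENSMUSG00000020184) stayed between 71.0 and 86.8 CPM, with a trend of 0.01 ± 0.022 (adjusted p = 0.805). These transcripts, of the factor and its main inhibitor, had the smallest ratio of highest to lowest sum among the members. Sesn2 (ENSMUSG00000028893), a stress-induced inhibitor of mTORC1 signalling, read 33.5, 34.9, 31.6 and 27.1 CPM on plate 1 and 28.0, 30.4, 24.1 and 26.9 CPM on plate 2. The trend of these sums was -0.09 ± 0.031 (adjusted p = 0.0849 by edgeR). In the median cell Sesn2 went from 28.9 to 18.7 CPM between bins 1 and 4 on plate 1. On plate 2 it went from 26.0 to 18.7 CPM. DESeq2 called Trp53 (0.0365) and Sesn2 (0.0437) lower. Trp53inp1 (ENSMUSG00000028211), an autophagy and apoptosis protein, read 25.5, 33.6, 32.6 and 30.5 CPM on plate 1 and 30.5, 33.8, 22.9 and 27.5 CPM on plate 2. Its plates disagreed most in bin 3, and the trend was -0.03 ± 0.048 (adjusted p = 0.716).

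Between the plates there was 1 sample on each side, so the values carry no test. Cdkn1a was at 196 CPM on plate 1 (exact Poisson 95% interval 195 to 198, counting error alone) and 156 CPM on plate 2 (155 to 158), a ratio of 1.26. Plate 1, the high H2B-iRFP sort, was above plate 2 in 4 of 4 bins for Cdkn1a, and the log2 differences were 0.33, 0.44, 0.52 and 0.11. Sesn2 (ratio 1.17), Zmat3 (1.11) and Phlda3 (1.06) were also higher on plate 1 in 4 of 4 bins. Bax had a ratio of 0.944 and was lower on plate 1 in 4 of 4 bins. The other members differed in direction between bins, with ratios from 0.960 (Trp53) to 1.08 (Trp53inp1). TMM scaling moved these differences upward. Under it the mean log2 difference was 0.41 for Cdkn1a, 0.28 for Sesn2, 0.22 for Zmat3 and 0.16 for Phlda3, all still higher on plate 1 in 4 of 4 bins. For Bax it was -0.02, with 1 of 4 bins higher on plate 1, and for Trp53 -0.002, so neither kept a direction over the bins.

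The remaining genes of the pathway were read from lists written with the members. Of 40 other p53 targets, 38 were tested, and 7 rose and 4 fell along the Venus bins; their median trend was 0.03 log2 per bin. Ephx1, an epoxide hydrolase, rose by 0.35 ± 0.031 log2 per bin (SE; adjusted p = 0.0013), from 76.2 to 186 CPM between bins 1 and 4 on plate 1 and from 91.4 to 172 CPM on plate 2. Aen, an apoptosis nuclease, rose by 0.26 ± 0.045 (adjusted p = 0.0101). Plk2, a polo-like kinase, changed by -0.37 ± 0.033 (adjusted p = 0.0013), and Ddit4, an inhibitor of mTORC1, by -0.27 ± 0.043 (adjusted p = 0.0071). The called targets went in both directions, as did the members and all genes tested (6.78% called higher and 8.64% lower). With library totals in place of TMM scaling, 7 of these targets rose and 2 fell.

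Among p53 regulators, 18 of 20 were tested, 1 rose and 3 fell (2 and 2 without TMM), with a median trend of -0.02. Mdm4, the Mdm2 relative that masks the p53 activation domain, was the most changed of those named at -0.18 ± 0.023 (SE; adjusted p = 0.0038). Rpl11, a ribosomal protein that can bind Mdm2, was at -0.08 (adjusted p = 0.0098), and Cop1, another p53 ubiquitin ligase, at -0.08 (adjusted p = 0.0303).

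Most close relatives of the members fell along the Venus bins. Of 12 paralogs, 10 were tested, 1 rose and 7 fell (1 and 6 without TMM), and their median trend was -0.14 log2 per bin. Ccng2, the cyclin G gene that is a target of FoxO factors, went from 50.9 to 30.7 CPM between bins 1 and 4 on plate 1 and from 51.8 to 37.4 CPM on plate 2 (-0.24 ± 0.028, SE; adjusted p = 0.0024). Ccng1 and Ccng2 thus passed the same test in opposite directions. Gadd45g (-0.21, adjusted p = 0.0131) and Gadd45b (-0.19, adjusted p = 0.0034) fell along with Gadd45a. Mdm4, named above, is also on this list. The riser was Bak1, a pore-forming effector like Bax, at 0.10 ± 0.021 (adjusted p = 0.0162 by edgeR).

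In the BCL2 family, 11 of 14 genes were tested, and 1 rose and 3 fell (2 and 3 without TMM), with a median trend of -0.02. The fallers were the BH3-only genes Bmf (-0.19, adjusted p = 0.0037) and Bcl2l11 (-0.17, adjusted p = 0.0142) and the survival gene Mcl1 (-0.14, adjusted p = 0.0068). Bax and Bak1, which encode pore-forming effectors, therefore rose. Bok, also on this list, was tested and not called. Of 12 ATF4 stress genes, 11 were tested, 2 rose and 4 fell (2 and 3 without TMM), with a median of -0.02. Trib3 changed by -0.40 ± 0.026 (SE; adjusted p = 0.0004), Ddit3 by -0.22 (adjusted p = 0.0021), Nupr1 by -0.15 (adjusted p = 0.0098) and Psat1 by 0.15 (adjusted p = 0.0022). Without TMM scaling the share of all called genes that rose was 57.8%, against 44.0% with it.

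Single cells differed widely in some members and little in others. Cdkn1a spanned the widest range of CPM of the members. Its 10th percentile, median and 90th percentile were 31.5, 152 and 407 CPM on plate 1 and 14.6, 107 and 364 CPM on plate 2. Its coefficient of variation (SD over mean across cells) was 0.917 and 1.06 on the plates, above 98.4% and 99.0% of genes of like mean. Bax was the most even member, from 59.1 to 151 CPM between the 10th and 90th percentiles on plate 1 and from 67.7 to 155 CPM on plate 2. The coefficient of variation of Bax was 0.371 and 0.330, above 36.8% and 14.1% of genes of like mean. Cells on these plates therefore had more similar amounts of Bax transcript and very unequal amounts of p21 transcript.

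Ccng1 had a median of 195 CPM on plate 1 and 191 CPM on plate 2, with maxima of 1256 and 1470 CPM. Its coefficient of variation (0.650 and 0.723) was above 93.3% and 95.1% of genes of like mean. Sesn2 (0.892 and 1.30), Trp53inp1 (1.13 and 1.11) and Gadd45a (0.957 and 0.980) were also in the upper tail of such genes, the lowest of them above 94.7%. Trp53 (0.407 and 0.466) and Mdm2 (0.510 and 0.456) lay closer to the middle of such genes. The share of cells with a count was 87.0% for Trp53inp1, 95.0% for Sesn2, 96.9% for Zmat3, 98.2% for Cdkn1a and 100% for Trp53, Mdm2, Ccng1, Phlda3 and Bax.

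Over cells, most members varied together. Spearman correlations of CPM were computed within each Venus bin, averaged over the 4 bins and then over the plates. They are descriptions without p-values, since cells of a plate share their library preparation. Of the 45 pairs of members, 37 were above 0, with a median of 0.119 (0.140 on plate 1 and 0.112 on plate 2). Over all pairs of the 10586 genes with a count in at least 50% of cells the median was 0.0059, and the central 95% ran from -0.133 to 0.154.

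The strongest pair was Cdkn1a with Ccng1, at 0.388 (0.374 on plate 1 and 0.403 on plate 2). Ccng1 with Zmat3 followed at 0.387 (0.374 and 0.399). These pairs were above 0 in all 8 combinations of plate and bin. Ccng1 stood at 0.277 with Bax, 0.275 with Phlda3 and 0.262 with Mdm2, and Cdkn1a with Phlda3 stood at 0.277. For Mdm2, Ccng1 was the closest of 10585 other genes, and for Zmat3 it was likewise the closest. Cyclin G1 thus took part in most of the strongest pairs, as the heat map of pairs shows.

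Other pairs went apart. Phlda3 with Gadd45a had the lowest value, -0.151 (-0.134 and -0.167), and Ccng1 with Gadd45a stood at -0.0786. Sesn2 with Gadd45a was positive at 0.240. Trp53 with Cdkn1a was -0.132, but it differed between plates (-0.0517 and -0.213). The p53 transcript was closest to Gadd45a among the members, at 0.210. The mean correlation of Trp53 with the 9 targets was 0.0123, above 61.2% of non-member genes, and that of Gadd45a with the other targets was 0.0355, above 83.3%. For the remaining 8 members this mean ran from 0.0923 (Phlda3) to 0.217 (Cdkn1a) and 0.229 (Ccng1). Phlda3, the lowest of these 8, was above 99.2% of non-member genes.

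**Figure D2:**
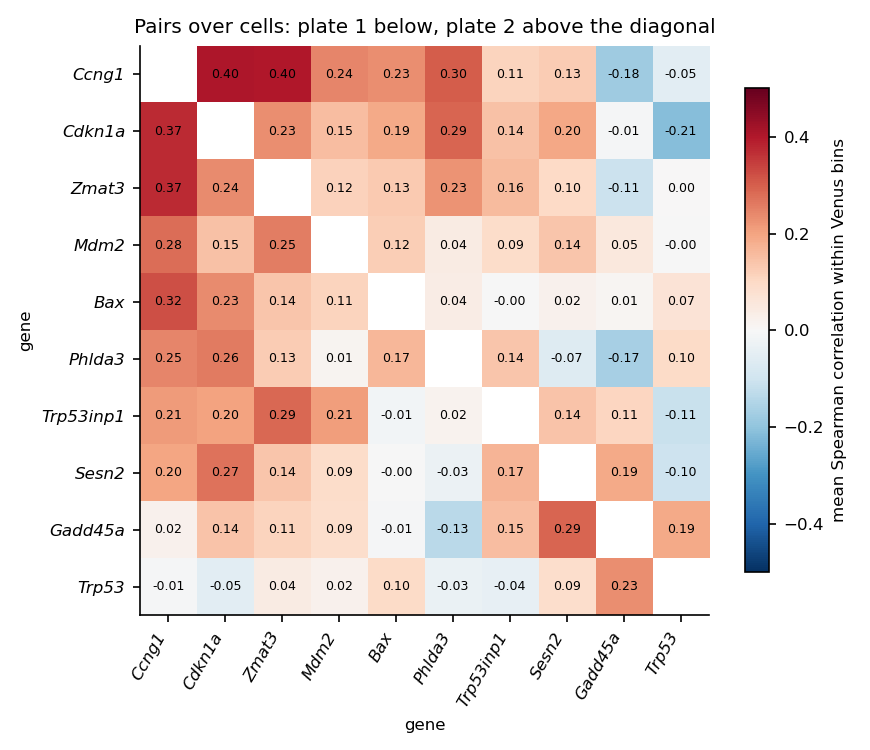
Heat map of mean within-bin Spearman correlations over cells for the 45 pairs of members (colour scale from negative, blue, to positive, red; values printed in the squares), with plate 1 below and plate 2 above the diagonal. Ccng1 is positive with Cdkn1a, Zmat3, Mdm2, Bax and Phlda3 on both plates, while Trp53 and Gadd45a stand apart from these.

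The shared variation was also read in absolute levels, where members differed. The top decile of cells by Ccng1 held 39 cells on plate 1 and 38 on plate 2. On plate 1 these cells had a median of 356 CPM of Cdkn1a, against 135 CPM in the other 344 cells, and on plate 2 the medians were 238 and 99.9 CPM. Zmat3 stood at 31.9 against 17.9 CPM on plate 1 and at 34.6 against 15.9 CPM on plate 2. Bax stood at 150 against 93.0 CPM on plate 1, and at 150 CPM, 1.5 times the median of the other cells, on plate 2. Trp53 itself was at 91.7 against 93.6 CPM and at 97.7 against 99.5 CPM, so cells rich in Ccng1 transcript had ordinary amounts of p53 transcript. Sesn2 also differed little (26.5 against 23.9 CPM and 22.0 against 20.3 CPM). Trp53inp1 stood at 33.6 against 18.9 CPM on plate 1 but at 21.3 against 19.5 CPM on plate 2. Gadd45a went the other way, at 35.7 against 38.2 CPM on plate 1 and 20.2 against 37.1 CPM on plate 2.

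Of the 39 plate 1 cells, 17 were also in the top decile for Cdkn1a, 17 for Mdm2, 19 for Bax and 4 for Gadd45a. Phlda3 had 16, Zmat3 14, Trp53inp1 11, Sesn2 7 and Trp53 5. Of the 38 plate 2 cells, 11 were also in the top decile for Cdkn1a, 10 for Mdm2, 16 for Bax and 5 for Gadd45a. Here Phlda3 had 14, Zmat3 17, Trp53inp1 7, Sesn2 4 and Trp53 6. A top decile holds about 10% of cells by definition, and the shares of Gadd45a (10.3% and 13.2%) were close to that. The overlap over all genes is not given here. Bin 4 held 24 of the 39 and 18 of the 38 cells. Among targets outside the members, Eda2r, of the TNF receptor family, was at 31.6 CPM in these cells against 3.95 CPM in the others on plate 1. On plate 2 Eda2r was at 31.5 against 5.25 CPM. The cells were picked on Ccng1 and include its Venus trend, so these values carry no test.

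**Figure D3:**
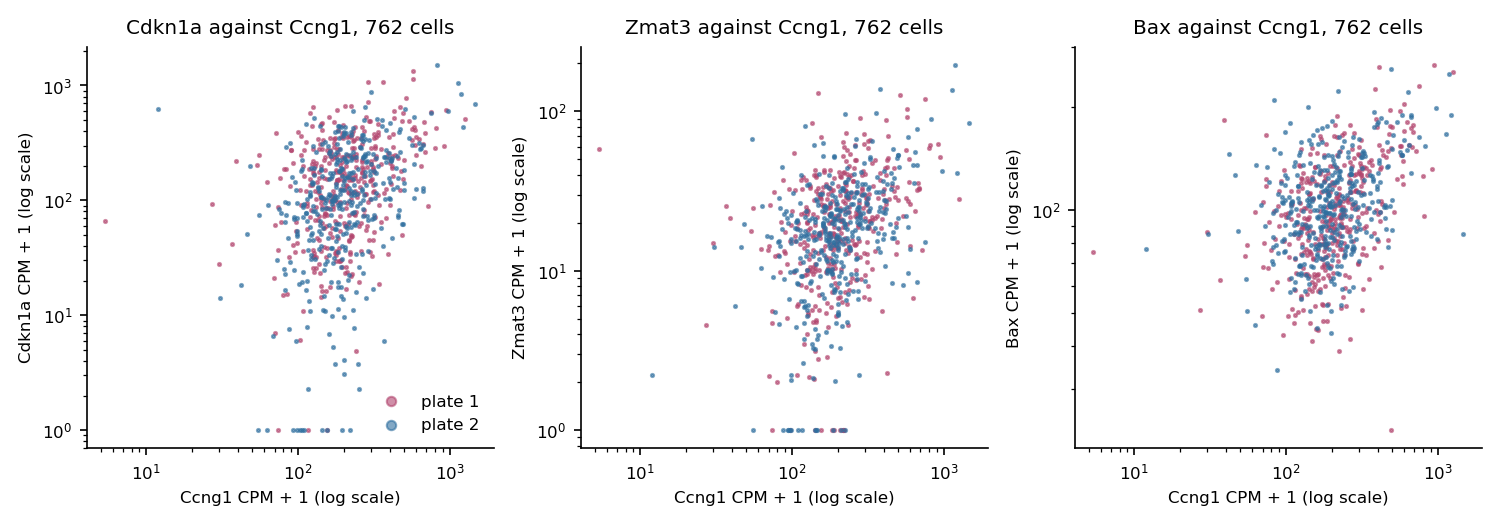
Cdkn1a, Zmat3 and Bax (vertical axes) against Ccng1 (horizontal axes) in 762 single cells, as CPM + 1 on log scales, with plate 1 in red and plate 2 in blue. Cells with the most Ccng1 lie toward the upper right in all 3 panels, and a few cells with no Cdkn1a or Zmat3 count lie on the bottom edge of their panels.

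All other genes were then ranked by their mean correlation with the 9 targets. The first 4 of 10576 non-member genes were Ephx1 (0.192), Rps27l (0.187), Aen (0.180) and Eda2r (0.178), and all 4 were on the list of other p53 targets. That list was chosen with earlier results of these data known, so the match is a description. By the same promoter search a p53 element without spacer matched in 4 of 33 other targets with a window, and of the 4 genes just named Rps27l, a ribosomal protein relative, alone was among them. Next came Glipr1 (0.171), the small nucleolar RNA host gene Snhg15 (0.167), the stress factor Ddit3 (0.159), Exoc4 (0.150), the translation repressor Eif4ebp1 (0.144) and the long non-coding RNA Pvt1 (0.141). Each of these 10 genes was positive on both plates. The lowest value of any gene was -0.136, for Rpl22l1.

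Lists were compared on the same measure. Of 29 other p53 targets detected in enough cells, 24 were above 0, with a median of 0.0637, and Sesn1 was the lowest at -0.0394. Over all 10576 non-member genes 5713 were above 0, with a median of 0.0033. All 10 ATF4 stress genes were above 0, with a median of 0.0931. The regulators had a median of -0.0045, the S phase genes of -0.0247 and the G2/M genes of -0.0248. Genes that act on p53 thus lay near the middle of all genes, and its targets and the ATF4 genes lay above it. The lists were chosen with earlier results of these data known, so this comparison is a description.

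**Figure D4:**
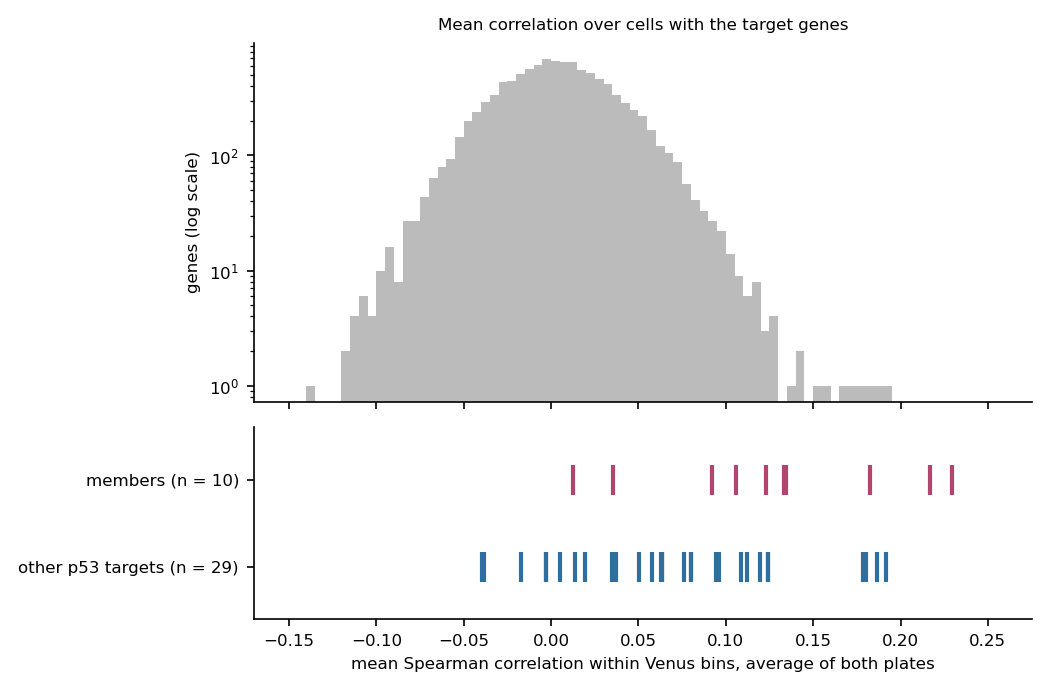
Histogram of the mean within-bin Spearman correlation with the 9 targets over cells (horizontal axis) for non-member genes detected in at least 50% of cells (vertical axis, number of genes, log scale); the ticks below mark the 10 members (red, each against the other targets) and 29 other p53 targets (blue). Ccng1, at 0.229, and Cdkn1a, at 0.217, lie beyond every non-member gene, and 24 of the 29 other targets lie above 0.

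Each member also had its own nearest genes, and these separated the set. For Ccng1 they were Rps27l (0.507), Ephx1 (0.500) and Eda2r (0.396). For Bax they were Rps27l (0.445), the ferritin light chain Ftl1 (0.343) and C1qbp (0.320). For Zmat3, after Ccng1, they were Ephx1 (0.270) and Glipr1 (0.262), and for Mdm2, after Ccng1, Krit1 (0.237) and Glipr1 (0.235). These 4 members thus had other p53 targets or each other among their nearest genes.

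Sesn2 was nearest to Ddit3 (0.488), Arhgef2 (0.409) and Chac1 (0.381), where Ddit3 and Chac1 are classic ATF4-pathway genes. Its median correlation with the 10 ATF4 stress genes was 0.320, beside -0.0037 over all genes. Cdkn1a was nearest to Eif4ebp1 (0.456), the Kruppel-like factor Klf4 (0.456) and the annexin Anxa8 (0.451), and its median with the ATF4 genes was 0.298. For Gadd45a that median was 0.206 (0.288 on plate 1 and 0.0976 on plate 2). For Trp53inp1 it was -0.124, and for Phlda3 -0.0182. For Ccng1 it was 0.111 and for Bax 0.0712, each with all 10 ATF4 genes above 0. The members thus ran from clearly positive to negative with the ATF4 genes.

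Trp53inp1 was nearest to the Myc antagonist Mxd4 (0.471), Ypel2 (0.428) and Pnrc1 (0.424). Gadd45a was nearest to matrix genes, Mmp11 (0.348) and Col3a1 (0.336), and to Serpinf1 (0.332). Phlda3 was nearest to Tm4sf1 (0.352), Gsto1 (0.348) and Csrp1 (0.348). Trp53 was nearest to Eif3l (0.293), Rpl8 (0.291) and Snu13 (0.285), genes of translation and RNA processing. None of the nearest 3 genes of Trp53 was a listed p53 target.

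Cell cycle genes, measured in the same cells, moved with several members. Trp53inp1 had a correlation of -0.294 with the summed G2/M genes and -0.239 with the summed S phase genes, with 1.7% and 1.5% of all genes lower. By quartiles of cells ordered on their G2/M sum, its medians were 26.2, 26.5, 19.6 and 8.54 CPM on plate 1. On plate 2 the medians were 32.3, 25.5, 20.1 and 7.43 CPM. Cells with the most G2/M transcript thus had the least Trp53inp1 on both plates.

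Gadd45a showed a related pattern with S phase, at -0.234. By quartiles of the S phase sum its medians were 53.1, 48.3, 36.2 and 20.1 CPM on plate 1 and 46.2, 37.1, 35.2 and 23.9 CPM on plate 2. Bax went the other way, with 0.192 for S phase and 0.196 for G2/M. Its medians by S phase quartiles were 88.1, 89.7, 94.3 and 119 CPM on plate 1 and 94.7, 98.7, 104 and 116 CPM on plate 2. Cdkn1a, the cell cycle inhibitor, was positive with the G2/M sum (0.185) and near 0 with the S phase sum (0.0016). With 23 G2/M genes taken singly, the median of Cdkn1a was only 0.0206, with 14 above 0, beside 0.0030 over all genes. Its medians by G2/M quartiles were 95.1, 153, 175 and 194 CPM on plate 1 and 75.7, 107, 121 and 113 CPM on plate 2.

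Technical measures were set beside these values. Trp53inp1 was correlated with the mitochondrial share at 0.274, against a median of -0.0414 over all genes, and Cdkn1a at -0.168. Correlations of the members with total counts per cell ran from -0.109 (Gadd45a) to 0.0369 (Phlda3). Ccng1 had 0.194 with the number of genes detected, above 96.6% of genes. With recorded iRFP fluorescence they ran from -0.0615 (Bax) to 0.0575 (Cdkn1a, which had -0.0353 on plate 1 and 0.150 on plate 2). With the parts of the ranks that followed the S phase and G2/M sums removed, the median over the 45 pairs was 0.113, and with each cell thinned to 400000 counts it was 0.122. The part of the mitochondrial share in the values of Trp53inp1 was not tested.

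**Figure D5:**
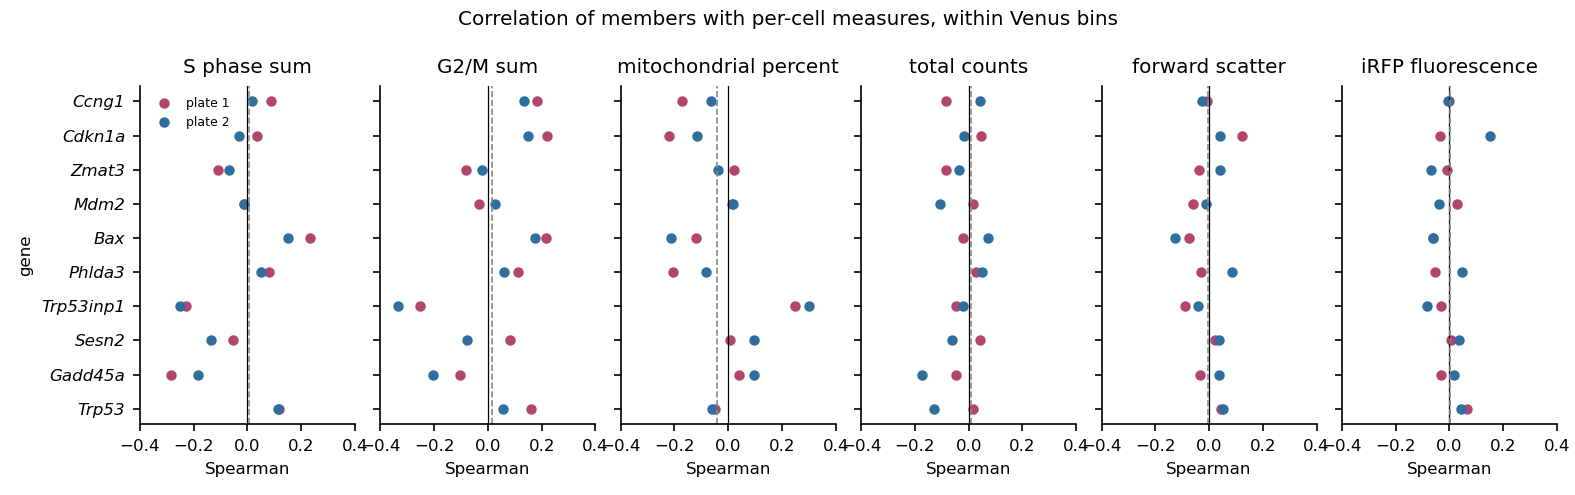
Spearman correlation (horizontal axes) of each member with 6 measures of the same cells, within Venus bins, on plate 1 (red) and plate 2 (blue); the solid line marks 0 and the dashed line the median over all genes. Trp53inp1 is the most negative member for the G2/M sum and the most positive for the mitochondrial percent, while points for total counts and iRFP lie closer to 0.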

How the data were processed

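The deposited table held raw counts per feature and cell as the authors made them, in whole numbers whose totals varied between cells. The submitters' processing notes name STAR 2.7.11a, SAMtools, bedtools, HTSeq and the build GRCm39, with no roles. Strand use, annotation and molecular identifiers are not given in the sources used here. PCR reads without such identifiers are not independent molecules, so intervals cover counting error alone. Intensity values of fluorescence and scatter, in arbitrary units, came from the deposited sorting record, which also gave the gate and well. Bins were ordered by median recorded Venus.

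Cells were kept if they had 1000 genes or more, a total no lower than 0.1 of the median of their plate, and no more than 25% mitochondrial counts. Features without a symbol held 1.07% of counts. No doublet caller was run, since wells were sorted singly, per the labels' protocols. No wells had identical counts. CPM used the full library totals.

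Counts were summed per plate and bin and fitted with edgeR 4.0.16 (quasi-likelihood, TMM, filterByExpr, Benjamini-Hochberg over all genes) in R 4.3.3. The model held the bin and the plate as a block, with 3 residual degrees of freedom. Trends are log2 per bin step, from a linear contrast over the 4 bins. Trends of lone plates (prior count 2) were not tested. The block pairs sums of the same plate: deviations from the bin means correlated at 0.224 to 0.409 over 9014 genes between bins of a plate. Counts were simulated for the Venus trend (17836 genes, 17636 of them unchanged). Of 50 genes with a true change of 0.2 log2 per bin 84% were called, and of 50 with 0.1, 22%. Of unchanged genes 0.0567% were called. In the data 15.4% of genes were called, so these shares need not carry over.

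Correlations over cells (Python 3.11.15, numpy 2.4.6) used genes with a count in at least 50% of cells. The CPM per kilobase used merged exons of a GRCm38 annotation, which is not the submitters' build. In the promoter search the central C and G of each half-site had to be kept, and spacer-free elements were chosen for display after the windows were seen.

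All members are named. Of each other list, the 4 most changed called genes are named, if their mean log2 CPM reached 3, and over cells the 10 genes nearest to the targets and the 3 nearest to each member. The members and lists were chosen with earlier results of these data known, so their counts are descriptions. Perp, Cdkn2a, Cdkn1c, Vldlr and Kdr were not analysed here, and Gdf15, Trp73, Phlda2, Bcl2l2, Bik and Hrk did not pass the filter on low counts. Alternatives covered DESeq2 1.42.0, limma-voom 3.58.1, scaling, filters, the block, and each bin or plate left out. They also covered an additive linear model on the sums and a separate fit to mean CPM over cells.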

Additional observations from a re-analysis of the deposited data

Results flagged for a closer look

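For 5 members the Venus trend had opposite signs on the plates. The difference, plate 1 minus plate 2, was 0.157 log2 per bin for Trp53inp1 (0.05 on plate 1 and -0.11 on plate 2). It was -0.0744 for Cdkn1a (-0.03 and 0.04), 0.0522 for Mdm2 (0.04 and -0.02), -0.0453 for Zmat3 (-0.04 and 0.003) and -0.0437 for Phlda3 (-0.02 and 0.03). These differences were not tested, since there is 1 plate of each H2B-iRFP sort. Of all genes tested, 30.5% had opposite signs on the plates, and none of these 5 members passed the trend test.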

How the results depend on the processing

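Ccng1, Bax and Gadd45a kept their direction and call under every tested alternative except leaving out bin 4. Over the alternatives the adjusted p of the trend ran from 2.32e-17 to 0.165 for Ccng1, from 1.60e-13 to 0.0527 for Bax, from 4.17e-18 to 0.314 for Gadd45a, from 0.0365 to 0.937 for Trp53 and from 0.0437 to 0.327 for Sesn2. For any difference between bins it ran from 1.79e-07 to 0.450 for Cdkn1a, from 1.42e-07 to 0.156 for Phlda3 and from 0.0015 to 0.229 for Zmat3. With no replicate block, and so no pairing by plate, 1683 genes were called by trend and 490 by any difference between bins, and 3 members passed the latter (Cdkn1a and Phlda3 were lost). The additive linear model called 1858 by trend. Leaving out bin 1 gave 1139 by trend and 378 by any difference, with 3 members by the latter. Leaving out bin 4 gave 358 and 133, with 1 member by trend (Cdkn1a) and 0 by any difference. Fewer sums entered these fits. For any difference, no filter on low counts gave 2661 and DESeq2 gave 3653. DESeq2 called 5 members by trend, and 3569 genes in all. The cause of these shifts was not tested.

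The median of the 45 pairs was 0.112 without plate 1 and 0.140 without plate 2, and 0.113 to 0.128 under the other alternatives. Trends that changed sign, all uncalled with 4 bins, were those of Mdm2 (-0.0235 without bin 4, -0.0153 without plate 1, 0.0369 without plate 2), Cdkn1a (-4.68e-05 with no block, -0.0063 without bin 2, -0.22 without bin 4, -0.0339 without plate 2, 0.0405 without plate 1), Phlda3 (-0.0174 without bin 2, -0.135 without bin 4, -0.0157 without plate 2, 0.0280 without plate 1), Zmat3 (0.160 without bin 1, 0.0052 without bin 3, 0.0034 without plate 1, -0.0419 without plate 2) and Trp53inp1 (0.0475 without plate 2, -0.109 without plate 1). The cause was not tested. With 2 plates, changes near 0.1 log2 per bin were mostly missed in simulated counts. Far fewer genes changed there than were called in the data, so that share need not carry over. An uncalled member may still differ between bins. Settings without the S and G2/M parts of the ranks, with whole plates and with the cells kept for thinning were chosen after seeing the data.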
